A study of Mus musculus with 11 samples.

Results

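Gzmk CD8 T cells were counted and described in droplet-based 3′ single-cell RNA sequencing of whole mouse lung. A cell was included when its barcode held 1000 to 30000 UMIs (unique molecular identifiers, 1 per captured RNA molecule), at most 14% of them mitochondrial, and when it carried 2 or more UMIs of Cd3d, Cd3e and Cd3g together, 1 or more of Cd8a and Cd8b1 together, 1 or more of Gzmk, at most 1 of Gzmb, and none of Cd4 or Cd79a. This rule found 1038 cells among 69267 kept cells and 81983 barcodes, or 1.5% of the kept cells. They made up 17.4% of the 5952 cells that passed the same T cell and CD8 terms. The other CD8 cells fell into 3200 cells with neither Gzmk nor Gzmb, called other CD8 cells here, 1389 cells with 2 or more Gzmb UMIs, called Gzmb CD8 cells, and 325 cells with 1 Gzmb UMI and no Gzmk. The members were chosen by measured values, so that their Gzmk, Gzmb, Cd3, Cd8, Cd4 and Cd79a counts are a description of the rule and were not tested.

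CD8 T cells recognise peptides on MHC class I and kill target cells by releasing granules that hold perforin and granzymes, a family of serine proteases. Granzyme B is the classical death-inducing member, while granzyme K, the product of Gzmk, cleaves other substrates and marks antigen-experienced CD8 cells that build up in tissues of old mice. Eomes is a T-box transcription factor of memory and effector CD8 cells, and Tox is a transcription factor that is switched on by persistent stimulation of the T cell receptor.

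The 11 lung libraries were 1 wild type library (+/+), 3 from p21 heterozygotes (p21Het, +/-), 5 from mice with 1 mTert allele at p21 (p21mTert, +/mTert) and 2 with an mTertCD allele (p21mTertCD, +/mTertCD). The gene p21 is Cdkn1a, an inhibitor of cyclin-dependent kinases, and mTert is the mouse telomerase reverse transcriptase, Tert. All groups but the wild type thus carry 1 changed p21 allele, and the labels do not say what CD stands for or whether a library pools animals. Age was labelled 18 months, except 19 months for p21Het_1 and 20 months for p21mTert_1, although the titles of these libraries also give 18. Those 2 libraries and the wild type belong to a first deposit and the other 8 to a later one, so that age and deposit cannot be told apart for them. Tert itself gave 15 UMIs in all members together, 10 of them in p21mTertCD_1.

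Libraries held 42038434 to 85988955 UMIs and 4721 to 8525 kept cells. The median member had 4160 to 7476 UMIs, and members were shallower than other CD8 cells of the same library in 10 of 11 libraries. One library stood apart, p21mTertCD_1. It held 368 members, against 26 to 130 in the others, only 177 B cells (2 or more Cd79a UMIs) against 955 to 2399, and it was the library in which members were deeper than other CD8 cells, with medians of 6658 and 5491 UMIs. No member barcode occurred in more than 1 library, whereas each pair of libraries shared 4 to 20 barcodes among all kept cells. Results that rest most on p21mTertCD_1 are given with and without it, or with the counts of each p21mTertCD library.

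The 4 markers given with the cell type were present in every library. As counts per 1000000 UMIs (CPM) summed over the members of a library, Gzmk (ENSMUSG00000042385, GRCm38 chr13:113171608-113225908, minus strand) was at 298 to 490 and Cd8a at 261 to 448. Eomes (ENSMUSG00000032446, chr9:118478212-118486132, plus strand) was at 243 to 557 CPM, and Tox (ENSMUSG00000041272, chr4:6686353-6991557, minus strand) at 145 to 351. Several markers of other lymphocytes were at or near 0. Foxp3, the factor of regulatory T cells, reached at most 1.3 CPM, Ncr1, a receptor of natural killer cells, at most 1.3, and Ms4a1, a B cell surface protein, at most 8.3. Some other such markers were not. The summed CPM of 7 gamma delta T cell markers was 68.7 to 416 in the members (median 137) and 27.9 to 199 in CD8 cells with neither granzyme (median 62.4), with Trdc, the constant segment of the delta chain, at 0 to 125 in the members. The sum of 8 natural killer markers, Eomes among them, was 338 to 1041 (median 579) against 204 to 457 (median 261). In the members, Eomes, itself a marker of the cell type, had a median of 372 CPM, Tyrobp 82.7 and Fcer1g 65.1. Klra4, Klra8, Klrb1c and Klra9 reached at most 1.3, 5.0, 7.4 and 45.8 CPM. The CD4 and regulatory T cell list, with Cd4 at 0 by the rule, summed to 32.4 to 152 (median 81.5) against 24.0 to 78.7 (median 34.9). Its Ikzf2 was at 27.0 to 152 CPM in the members (median 79.2), while Cd40lg reached at most 8.3. The B cell list summed to 91.1 to 1019 (median 262) against 241 to 769 (median 368). Transcripts of other lung cells were present in varying amount. The summed CPM of 6 macrophage and monocyte markers was 153 to 2629, that of 3 neutrophil markers 20.1 to 5138, that of 4 alveolar epithelial markers 275 to 9413, that of 4 fibroblast markers 4.4 to 362 and that of 4 erythroid markers 26.6 to 16748, with none of these markers at 0 in all libraries. The part of these transcripts in the results below was not tested, and their values are repeated where they move with one.

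The 3 granzyme genes that separate the CD8 classes are shown here by the 250 bases before their RefSeq start (build GRCm38.p6), because 2 of them set the gate and the T-box factor Eomes was high in the members. The motif searched was GGTGTGA, a half-site bound by T-box factors, on both strands, and it is printed in capitals. These are the windows of Gzmk (chr13:113180966-113181215, minus strand), Gzma (chr13:113100982-113101231, minus strand) and Gzmb (chr14:56262335-56262584, minus strand), 5′ to 3′.
Gzmk: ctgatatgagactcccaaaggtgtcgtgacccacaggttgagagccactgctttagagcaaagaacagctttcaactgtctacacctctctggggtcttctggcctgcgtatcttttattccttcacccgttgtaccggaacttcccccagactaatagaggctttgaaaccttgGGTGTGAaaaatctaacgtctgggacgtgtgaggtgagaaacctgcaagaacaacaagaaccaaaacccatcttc
Gzma: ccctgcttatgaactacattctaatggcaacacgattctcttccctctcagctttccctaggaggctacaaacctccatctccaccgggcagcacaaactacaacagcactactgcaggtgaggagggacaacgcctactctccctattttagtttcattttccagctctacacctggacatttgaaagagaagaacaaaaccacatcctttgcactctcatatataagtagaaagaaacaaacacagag
Gzmb: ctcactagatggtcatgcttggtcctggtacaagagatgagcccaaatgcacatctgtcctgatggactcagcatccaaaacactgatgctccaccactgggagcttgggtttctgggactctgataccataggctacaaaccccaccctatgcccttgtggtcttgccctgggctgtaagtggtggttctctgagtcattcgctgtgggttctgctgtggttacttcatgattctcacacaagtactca
The Gzmk window held the motif once, on the strand of the gene, beginning 75 bases before the start, and the Gzma and Gzmb windows did not hold it. The windows of Pdcd1, Eomes and Ifng, also searched, did not hold it either. Among 32851 RefSeq promoter windows of the same length, 1095 (3.33%) held the motif, so a match is a description of these letters and not of binding. Gzma lies on the same strand as Gzmk, and their RefSeq starts are 80.0 kb apart.

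Most members carried few Gzmk UMIs. Exactly 1 was found in 369 members (35.5%), 2 in 252 and 3 or more in 417, with a highest count of 14. Members held 2721 of the 7835 Gzmk UMIs of the kept cells, or 34.7%. Free RNA was judged from B cells, which should not make Gzmk: a Gzmk UMI was found in 0.0729% to 0.615% of the B cells of 10 libraries, whose median B cell had 3484 to 5461 UMIs, and in 4 of 177 (2.26%) in p21mTertCD_1, where the median was 9130. Around the Gzmk threshold, given as a description, cells with no Gzmk had Eomes at 94.8 CPM, members with 1 UMI had 249, and members with 2 or more had 386. Tox was at 30.8, 188 and 218 CPM in the same order, and Pdcd1 at 6.41, 60.9 and 79.8. Without p21mTertCD_1 the values were 93.9, 299 and 452 CPM for Eomes, 29.1, 217 and 261 for Tox, and 5.14, 58.5 and 80.8 for Pdcd1. Members with a single Gzmk UMI were in both cases nearer in these genes to members with more than to cells without. Around the Gzmb threshold, the 202 members with 1 Gzmb UMI had Eomes at 227 CPM and Tox at 171, and the 142 cells with Gzmk and exactly 2 Gzmb UMIs, which the rule leaves out, had 214 and 140. Without p21mTertCD_1 these were 262 and 187 CPM in 89 members, and 168 and 162 CPM in 60 cells left out.

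The first question was whether the cells were more frequent under an mTert or mTertCD allele. As a share of kept cells, members were 0.418%, 0.762% and 0.597% in the p21Het libraries (replicates 1 to 3) and 0.586% in the wild type library (exact 95% binomial interval 0.401% to 0.826%, counting error only). In the p21mTert libraries they were 1.06%, 1.502%, 2.06%, 1.02% and 1.21%, and in the p21mTertCD libraries 5.61% and 1.46%. Every p21mTert and p21mTertCD library thus lay above every p21Het library and the wild type. The p21mTert mean of 1.37% ± 0.43 (SD, n = 5) was 2.31 times the p21Het mean of 0.592% ± 0.172 (SD, n = 3), a difference of 0.778 percentage points (2-sided exact permutation p = 0.0357, smallest possible 0.0179). Adjusted over the 6 share tests the p was 0.214, so the difference did not pass. Within the later deposit it was 0.768 percentage points (exact permutation p = 0.133, smallest possible 0.0667), and the first deposit holds 1 library per group. Leaving out p21mTert_1, p21mTert_4 or p21mTert_5 gave differences of 0.855, 0.865 and 0.819 (exact permutation p = 0.0571 each), and leaving out p21Het_1, p21Het_2 or p21Het_3 gave 0.691, 0.863 and 0.780 (p = 0.0952 each). With every cell thinned to 1000 UMIs before the gate, the difference was 0.217 (exact permutation p = 0.0536). The limit of 1 Gzmb UMI was kept on thinned counts, so cells richer in Gzmb could also pass this gate. B cells are a large part of the denominator, and over kept cells without them the difference was 1.07 percentage points (exact permutation p = 0.0179), an alternative chosen after the data were seen. With Gzmk cells of any Gzmb count let in, the difference was 1.48 (exact permutation p = 0.0357).

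The p21mTertCD mean was 3.54% ± 2.93 (SD, n = 2), and its SD shows how far apart the 2 libraries were. It lay above p21Het by 2.95 percentage points, with an exact permutation p of 0.1, the smallest that 2 against 3 libraries allow (adjusted 0.286). Without p21mTertCD_1 this difference was 0.872. The p21mTert mean lay below p21mTertCD by 2.17 percentage points (exact permutation p = 0.143, adjusted 0.286), and without p21mTertCD_1 the difference was -0.0944. With any Gzmb count let in, p21mTertCD lay 6.02 above p21Het (exact permutation p = 0.1), and p21mTert minus p21mTertCD was -4.54 (exact permutation p = 0.19). With the gate on thinned cells these were 0.971 and -0.754. These differences rest most on p21mTertCD_1. Gzmk cells of any Gzmb count were 760 of 6558 kept cells there and 100 of 5598 in p21mTertCD_2. On thinned cells, members were 126 of 6558 and 12 of 5598 in the same order.

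**Figure D1:**
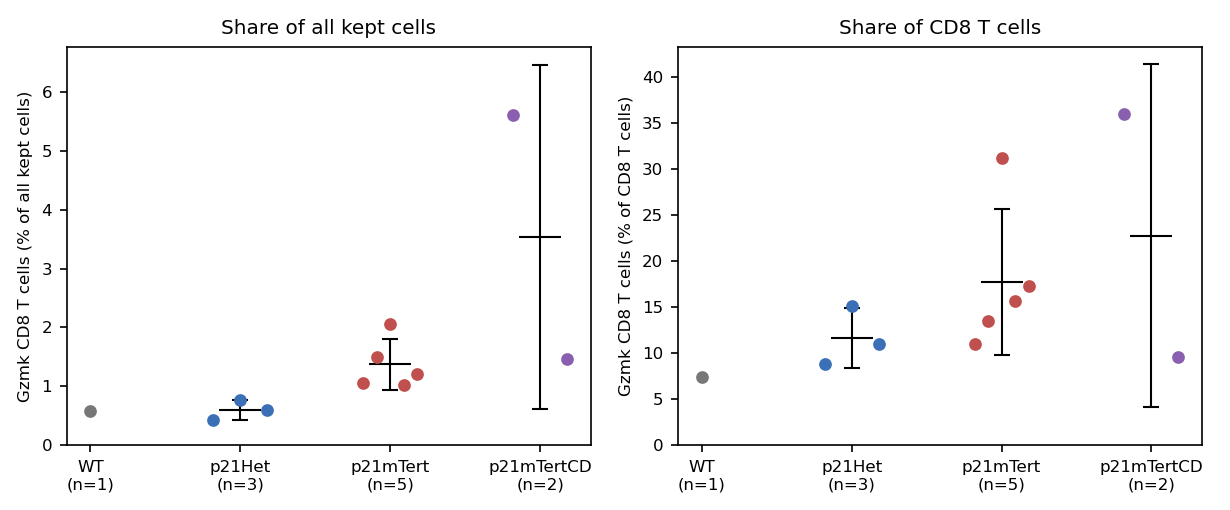
Gzmk CD8 T cells as a percentage of kept cells (left) and of CD8 T cells (right), 1 point per library by genotype group, with the group mean and SD as bars. On the left, the 5 p21mTert libraries, at 1.02% to 2.06%, sit above the 3 p21Het libraries, at 0.418% to 0.762%, while on the right the groups overlap.

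Within the CD8 compartment the difference between genotypes was smaller against its spread. Members were 7.39% of the CD8 cells of the wild type. The mean for p21Het was 11.6% ± 3.2 (SD, n = 3), that for p21mTert 17.7% ± 7.9 (SD, n = 5) and that for p21mTertCD 22.7% ± 18.7 (SD, n = 2). The groups overlapped, from 8.78% to 15.2% in p21Het, from 11% to 31.3% in p21mTert, and at 35.9% and 9.56% in p21mTertCD. The difference of 6.11 percentage points between p21mTert and p21Het had an exact permutation p of 0.25 (adjusted 0.375), and it was 2.73 without p21mTert_3. p21mTertCD lay 11.1 above p21Het (exact permutation p = 0.4, adjusted 0.48) and -2.07 from it without p21mTertCD_1. p21mTert minus p21mTertCD was -5.02 (exact permutation p = 0.81, adjusted 0.81) and 8.17 without p21mTertCD_1. With any Gzmb count let in, the differences were larger, at 13.9 for p21mTert minus p21Het (exact permutation p = 0.0893), 29.8 for p21mTertCD minus p21Het (exact permutation p = 0.3) and -15.9 for p21mTert minus p21mTertCD (exact permutation p = 0.429). The last 2 rest on p21mTertCD_1, where Gzmk cells were 760 of 1024 CD8 cells. They were 100 of 858 in p21mTertCD_2, and 28 of 296, 68 of 429 and 45 of 320 in p21Het. After thinning to 1000 UMIs the share was 5.75% ± 2.22 in p21Het, 11.1% ± 3.5 in p21mTert and 14.4% ± 14.7 in p21mTertCD, and 4.44% in the wild type. The p21mTertCD libraries were at 24.8% and 4.0%. The limit of 1 Gzmb UMI was kept on thinned counts, so this is not the same class at equal depth. Gzmb CD8 cells numbered 36 in p21mTert_2 and 55 in p21mTertCD_1 after thinning, against 288 and 479 before.

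The share of CD8 cells among kept cells is given beside these values and was not tested. It was 7.92% in the wild type. The p21Het mean was 5.08% ± 0.35 (SD, n = 3), the p21mTert mean 8.18% ± 2.08 (SD, n = 5) and the p21mTertCD mean 15.5% ± 0.2 (SD, n = 2). Gzmb CD8 cells were 2.77% of CD8 cells in the wild type and 3.04% to 6.25% in p21Het. They were 34.4% and 39.1% in p21mTert_2 and p21mTert_5, 46.8% and 40.9% in both p21mTertCD libraries, and 5.17% to 6.83% in the other p21mTert libraries. The library richest in members within p21mTert, p21mTert_3 at 31.3% of CD8 cells, had 6.25% Gzmb CD8 cells. Members and Gzmb CD8 cells exclude each other by the rule, so their orders across libraries are not independent. With any Gzmb count let in, Gzmk cells were 140 of 416 CD8 cells in p21mTert_3 and 133 of 330 in p21mTert_5.

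**Figure D2:**
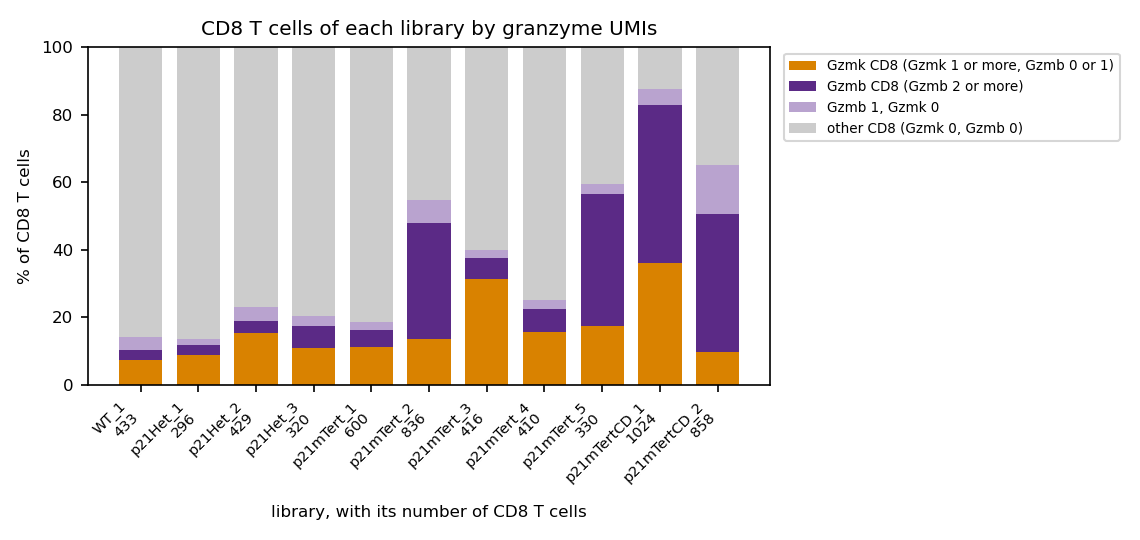
Division of the CD8 T cells of each library into other CD8 cells, Gzmk CD8 cells, Gzmb CD8 cells and cells with 1 Gzmb UMI, as stacked percentages from 0. Gzmk CD8 cells range from 7.39% in the wild type to 35.9% in p21mTertCD_1, and Gzmb CD8 cells reach 34.4% or more in p21mTert_2, p21mTert_5 and both p21mTertCD libraries.

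Gzmk CD8 cells were next compared with other CD8 cells of the same library. UMIs were summed per library and class and tested with edgeR with the library as a block, over 11 libraries and 9404 genes, after the genes of the gate were left out. At a Benjamini-Hochberg adjusted p under 0.05, 1875 genes (19.9%) were called, 905 higher in the members (9.62%) and 970 lower (10.3%), with a median log2 fold change of -0.01 over all genes tested. These shares are the background for the lists below, which were chosen with earlier results of the same data known. The comparison sets cells chosen for a Gzmk UMI against cells chosen for none, and its genes describe that choice. Fold changes are edgeR's on a log2 scale, and ratios of plain CPM lay 0.19 higher for genes of at least 50 CPM, which turned the sign of 4 called genes.

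Among 19 transcription factors of effector, memory and exhausted T cells, 14 were higher and none lower, with a median log2 fold change of 1.23 against -0.01 over all genes. Eomes and Tox, which came with the cell type as its markers, are included. Eomes was at 243 to 557 CPM in the members (median 372) and at 73.3 to 125 in other CD8 cells (median 94.0), so that the classes did not overlap, and its log2 fold change was 1.77 (SE 0.10). Tox had 145 to 351 CPM (median 233) against 23.3 to 87.5 (median 27.4) and a log2 fold change of 2.70 (SE 0.18). The bZIP factor Maf, known to drive Il10 in T cells, was at 142 to 535 CPM (median 292) against 10.4 to 91.2 (median 28.3), with a log2 fold change of 3.01 (SE 0.24, edgeR adjusted p = 2.64e-08). For these 3 genes the lowest member value stood above the highest value of the other CD8 cells. Nr4a2, an orphan nuclear receptor induced by T cell receptor signals, rose by 2.32 (SE 0.19) on the log2 scale, Bhlhe40, a repressor linked to cytokine output, by 1.98 (SE 0.19), and Prdm1, which encodes Blimp-1, by 1.38 (SE 0.20), each in 11 of 11 libraries. Tbx21, which encodes T-bet, the T-box relative of Eomes, was at a median of 59.8 CPM against 38.6 and did not pass (log2 fold change 0.28, SE 0.11, edgeR adjusted p = 0.0857), although it did without p21mTertCD_1 (0.32, edgeR adjusted p = 0.0497).

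Inhibitory receptors, which dampen T cell activation, were higher in 8 of 13 tested genes and lower in 1, with a median log2 fold change of 1.05. Pdcd1, which encodes PD-1 (ENSMUSG00000026285, chr1:94038305-94052553, minus strand), was at 84.3 CPM in the wild type members, at 34.4, 62.9 and 87.5 in p21Het, at 49.7, 56.1, 90.4, 67.1 and 83.7 in p21mTert, and at 74.3 and 88.4 in p21mTertCD. Other CD8 cells held 0.99 to 48.6 CPM of Pdcd1 (median 5.99), the log2 fold change was 3.14 (SE 0.31, edgeR adjusted p = 3.18e-07), and members were higher in 11 of 11 libraries. Lag3, a CD4-related receptor for MHC class II, was at 16.2 to 109 CPM (median 37.8) against 0.667 to 64.4 (median 2.93), and rose by 2.92 (SE 0.41). Tigit, a receptor for CD155, rose by 2.81 (SE 0.40) at low levels, with a median of 11.2 CPM. Ctla4, which competes for the CD80 and CD86 ligands, rose by 1.66 (SE 0.19), and Klrg1, a lectin-like receptor of differentiated cells, by 3.65 (SE 0.36). Btla was the inhibitory receptor that was lower, at -0.77 (SE 0.21, edgeR adjusted p = 0.0132), a call that was lost in the later deposit alone (edgeR adjusted p = 0.0960).

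All 15 genes of naive and central memory T cells were lower in the members, with a median log2 fold change of -1.43. Ccr7, the receptor that guides naive cells to lymph nodes, was at 19.4 to 160 CPM (median 74.5) against 75.4 to 690 (median 536), and fell by 3.11 (SE 0.22) on the log2 scale. The factors Lef1 and Tcf7, which maintain the naive state, had log2 fold changes of -1.83 (SE 0.15) and -0.86 (SE 0.09). Tcf7 was still at 120 to 269 CPM in the members (median 215), against 179 to 401 in other CD8 cells. Dapl1 had the strongest fall on this list, at -3.85 (SE 0.36), and Il7r, the interleukin-7 receptor chain of resting T cells, the smallest, at -0.71 (SE 0.09). The lowest fold changes were taken among genes with a mean of at least 50 CPM in other CD8 cells and lower in 11 of 11 libraries. Genes passed this limit through the class where they were high, so the ranking is a description. It held Dapl1, Ccr7, Tdrp (-2.76), Fam241a (-2.57), Actn1 (-2.48), Satb1 (-2.38), Il6ra (-2.37), Dusp10 (-2.30), Sh3bp5 (-2.28) and Tnfsf8 (-2.26), of which 4 are on the naive list.

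Killing and secretion genes were more often higher than lower. Of 11 cytotoxic granule genes 7 were higher and 1 lower (median log2 fold change 0.58), and of 10 cytokine and chemokine genes 6 were higher and none lower (median 1.74). Ccl5, the chemokine ligand RANTES, was at 10796 to 18916 CPM (median 16027) in the members and at 3962 to 10510 (median 4504) in other CD8 cells. Its log2 fold change was 1.39 (SE 0.10), and a Ccl5 UMI was found in 1018 of the 1038 members (98.1%). Nkg7, a granule membrane protein, rose by 1.30 (SE 0.08), Prf1, which encodes perforin, by 0.96 (SE 0.11), and Fasl, the Fas ligand, by 1.08 (SE 0.12), each in 11 of 11 libraries. Gzma differed widely between libraries. It was at 17.7 CPM in the wild type, at 0, 14.0 and 18.2 in p21Het, at 27.6, 537, 30.1, 335 and 16.2 in p21mTert, and at 142 in both p21mTertCD libraries. It was higher in the members in 8 of 11 libraries, with a log2 fold change of 2.01 (SE 0.47, edgeR adjusted p = 0.0034). Gzmm was the granule gene that was lower, at -0.76 (SE 0.18). Among cytokines, Ifng was at 18.2 to 127 CPM (median 86.6) against 4.89 to 54.7 (median 14.7), and rose by 2.28 (SE 0.24). Ccl4 rose by 2.13 (SE 0.25) and Xcl1, the ligand of XCR1 on cross-presenting dendritic cells, by 2.27 (SE 0.29), each in 10 of 11 libraries.

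Receptors for homing and cytokines were split, with 7 of 16 higher and 4 lower (median log2 fold change 0.19). Cxcr3, a receptor for interferon-induced chemokines, rose by 1.03 (SE 0.10), Cxcr5, the receptor for the follicle chemokine CXCL13, by 1.22 (SE 0.14), and Il10ra, an interleukin-10 receptor chain, by 2.17 (SE 0.17). Ccr9, a gut-homing receptor found on naive CD8 cells, fell by 2.93 (SE 0.34) and was at 0 in the median member library. Of 9 tissue residency genes 3 were higher and 1 lower (median 0.27). Itga4, an integrin chain, rose by 1.97 (SE 0.13), while Itgae, which encodes CD103 of epithelial resident cells, fell by 2.63 (SE 0.48), with a UMI in 9 of 1038 members. Cxcr6, a receptor of lung-resident T cells, had a median of 64.0 CPM against 49.7 and did not pass (log2 fold change 0.09, SE 0.11, edgeR adjusted p = 0.652).

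**Figure D3:**
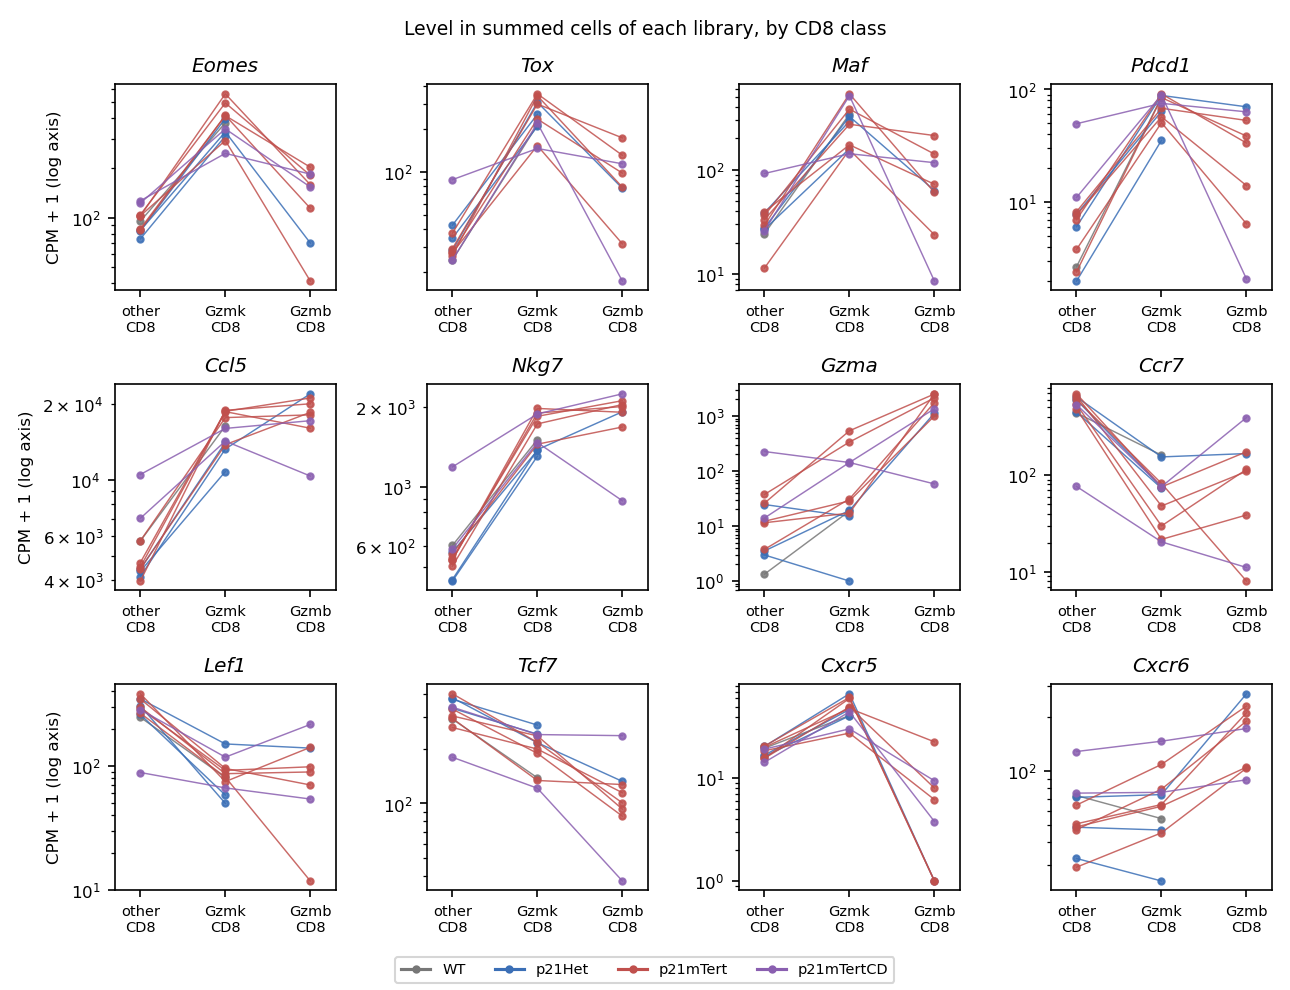
Levels of 12 genes in CPM + 1 on a log axis, 1 point per library, for Gzmk CD8, other CD8 and Gzmb CD8 cells (libraries with at least 20 cells in the class). Eomes, Tox and Maf lie higher in Gzmk CD8 cells than in other CD8 cells without overlap, Ccr7 and Lef1 lie lower, and the ranges of Ccl5 and Nkg7 overlap between Gzmk CD8 and Gzmb CD8 cells.

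The remaining lists covered interferon response, cell cycle, natural killer receptors and p53. Of 12 interferon-stimulated genes 6 were higher and none lower (median log2 fold change 0.41), among them Irf7, a factor of the interferon response, at 1.10 (SE 0.08) and Ifi27l2a at 1.13 (SE 0.13). Of 14 cell cycle genes 3 were higher and none lower (median 0.80). Mki67, which encodes the proliferation antigen Ki-67, was at 0 CPM in the wild type members, at 218, 62.9 and 14.6 in p21Het, at 8.28, 8.86, 17.6, 15.7 and 97.2 in p21mTert, and at 37.3 and 41.7 in p21mTertCD, and did not pass (log2 fold change 0.93, SE 0.42, edgeR adjusted p = 0.131), except without the filter on low counts. Of 11 receptors of natural killer cells 1 was higher and 3 were lower, with Klra7 at -2.07 (SE 0.39). The higher one, Klrk1 at 0.44, lost its call in 6 of 19 alternatives and turned its sign in another. Of 11 targets of p53, 2 were higher and 2 lower, and Cdkn1a did not pass, at -0.06 (SE 0.23), a sign that turned with the tool.

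The highest fold changes at a mean of at least 50 CPM and in 11 of 11 libraries were led by Penk, the precursor of enkephalin peptides. Here too genes passed the limit through the class where they were high, so the ranking is a description. Penk was at 5.71 to 135 CPM in the members (median 42.7) and 0 to 6.19 in other CD8 cells (median 0.798), with a log2 fold change of 5.14 (SE 0.53, edgeR adjusted p = 6.07e-07). The others were Pdcd1, Maf, Lag3, Tox, Nr4a2, Tbc1d4 (2.29), a Rab GTPase-activating protein, Ifng, Casp1 (2.26), the inflammatory caspase, and Tspan3 (2.21), a tetraspanin. Esm1, chosen after its values were seen, had a log2 fold change of 4.89 (SE 0.33, edgeR adjusted p = 3.05e-09), at 8.87 to 93.8 CPM (median 32.4) against 0 to 3.65 (median 0.798). Esm1 lies on chr13:113209659-113218098, plus strand, inside the span that the GENCODE M21 annotation gives to Gzmk on the minus strand, 28.7 kb from the RefSeq start of Gzmk. Reads of the 2 genes over that span cannot be told apart without knowing how strand was used in counting, and their part in the Esm1 value was not tested.

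Differences in depth were checked on cells thinned to 1000 UMIs each, with the share of cells in which a gene was detected averaged over 11 libraries. Eomes was detected in 30.5% of the members, 7.54% of other CD8 cells and 13.9% of Gzmb CD8 cells, against 77.7%, 37.1% and 46.5% before thinning. Tox was detected in 20.9%, 4.02% and 10.0%, against 61.6%, 19.7% and 33.1% before thinning. Pdcd1 was found in 8.86%, 1.20% and 4.14% after thinning and in 29.1%, 4.39% and 16.3% before it. With the summed counts taken from thinned cells, edgeR called 519 genes in place of 1875 in this comparison, of 3156 tested.

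Gzmk CD8 cells were then compared with Gzmb CD8 cells, a class that the rule leaves out for its Gzmb and that in part also carried Gzmk. With no limit on Gzmb, p21mTert_1 to p21mTert_5 held 74, 245, 140, 80 and 133 Gzmk cells, against 66, 113, 130, 64 and 57 members. p21Het_3 held 45 against 35, p21mTertCD_1 760 against 368 and p21mTertCD_2 100 against 82. The surplus in each library is Gzmb CD8 cells, so the contrast separates the classes by Gzmb and only in part by Gzmk. The comparison used the 8 libraries with at least 20 cells in both classes (the 5 p21mTert, both p21mTertCD and p21Het_3) and 7198 genes. Only p21mTert_1 of these is from the first deposit. The later deposit alone and leaving out p21mTert_1 are thus the same fit here, although they count as separate alternatives below. Here 278 genes (3.86%) were called, with 159 higher in the members (2.21%) and 119 lower (1.65%). The median log2 fold change over all genes tested was 0.00. The count cannot be set against that for other CD8 cells, because libraries and cells were fewer. The Gzmb class held 20 to 31 cells in p21Het_3, p21mTert_1, p21mTert_3 and p21mTert_4, while every library held at least 128 other CD8 cells. Gzmb CD8 cells of p21mTertCD_2 stood apart, with a median of 13222 UMIs against 4221 to 7821 in the other 7 libraries and with Trbv12-2 as the T cell receptor segment in 21 of 26 cells with a single such segment. Without p21mTertCD_2 423 genes were called, and without p21mTert_1, p21mTert_3 or p21mTert_5 the counts were 184, 177 and 183. Without the library as a block 61 genes were called, and on thinned cells 54.

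Most granule genes overlapped in range between these classes and did not pass the test. Nkg7 was at 1378 to 1971 CPM in the members and 884 to 2237 in Gzmb CD8 cells, with a log2 fold change of -0.03 (SE 0.10, edgeR adjusted p = 0.952). Ccl5 had a log2 fold change of -0.06 (SE 0.09, edgeR adjusted p = 0.854), and Prf1 one of -0.07 (SE 0.10, edgeR adjusted p = 0.830). The signs of Nkg7 and Ccl5 turned in other settings. Gzma was one of 2 granule genes that were lower. It was at 16.2 to 537 CPM in the members (median 85.9) and at 57.2 to 2528 in Gzmb CD8 cells (median 1550), lower in the members in 7 of 8 libraries, with a log2 fold change of -3.39 (SE 0.58, edgeR adjusted p = 0.0029). The other was Serpinb6b at -0.86, and of the 11 granule genes none was higher (median log2 fold change -0.13).

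Of the 19 transcription factors 4 were higher and none lower (median 0.38). Maf was at 142 to 535 CPM in the members and 7.53 to 212 in Gzmb CD8 cells, with a log2 fold change of 2.07 (SE 0.46), a call that was lost at 2 or more Gzmk UMIs (edgeR adjusted p = 0.0516). Tox followed with 1.76 (SE 0.27), Eomes with 1.55 (SE 0.20), from 243 to 557 CPM against 40.3 to 200 without overlap, and Nr4a2 with 1.09 (SE 0.26). The Nr4a2 call was lost in 6 of 16 alternatives, among them DESeq2, the later deposit alone and leaving out p21mTert_1, p21mTert_2 or p21mTert_5, with edgeR or DESeq2 adjusted p up to 0.128. Pdcd1 was the inhibitory receptor that was higher, by 1.59 (SE 0.43, edgeR adjusted p = 0.0469), at 49.7 to 90.4 CPM against 1.07 to 69.1, and this call was lost in 10 of 16 alternatives. Ctla4, at 1.45 (SE 0.41), did not pass (edgeR adjusted p = 0.0572). It passed in 6 of 16 alternatives, among them DESeq2, doublets left out, and leaving out p21mTertCD_1 or p21mTertCD_2, and its log2 fold change ran from 0.82 to 2.00 over the alternatives. Klrc1 was the inhibitory receptor that was lower (-0.72), and the median of the 12 tested was -0.21.

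Cxcr5 and Tbc1d4 separated the classes most among named genes that were higher. Cxcr5 was at 26.6 to 65.6 CPM in the members and 0 to 21.7 in Gzmb CD8 cells, a log2 fold change of 2.76 (SE 0.33, edgeR adjusted p = 1.84e-04). Tbc1d4 was at 31.4 to 87.5 against 0 to 13.2 CPM, a log2 fold change of 3.18 (SE 0.48). Slamf6, a receptor found on stem-like memory T cells, had a log2 fold change of 1.65 (SE 0.22), Gpr183, an oxysterol receptor for positioning in lymphoid tissue, 1.55 (SE 0.20), and Trps1, a GATA-type repressor, 1.69 (SE 0.30). Tbc1d4, Slamf6, Gpr183 and Trps1 were named by a rule that required at least 50 CPM and the same direction in every library. Their values are thus a description. On the naive and memory list 2 of 14 genes were higher, Tcf7 by 0.86 (SE 0.18) and Il7r by 0.54 (SE 0.13), and 2 were lower, Ly6c2 at -1.59 (SE 0.20) and Klf2 at -0.47 (SE 0.11). The Il7r call was lost in 9 of 16 alternatives (edgeR adjusted p up to 0.565), among them leaving out p21mTertCD_1 or any 1 p21mTert library, and the Klf2 call in 6 of 16 (up to 0.164), among them leaving out p21Het_3, p21mTert_1, p21mTert_2 or p21mTert_5. Xcl1, at 1.46 (SE 0.31), and Crtam, at 1.05 (SE 0.17), were higher in 7 of 8 libraries. Cxcr6 fell by 0.88 (SE 0.16), with 44.2 to 146 CPM in the members against 88.4 to 270. The calls of Tcf7, Xcl1 and Cxcr6 were each lost without the library as a block and on thinned cells, that of Xcl1 also at 2 or more Gzmk UMIs.

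Most listed cell cycle genes and receptors of natural killer cells were lower in the members than in Gzmb CD8 cells. Of 14 cell cycle genes 9 were lower and none higher (median log2 fold change -1.61). Mki67 was at 8.28 to 97.2 CPM (median 16.6) against 0 to 224 (median 106), and fell by 1.75 (SE 0.34). Ube2c, an enzyme of mitotic exit, fell by 3.64 (SE 0.29), Birc5, which encodes survivin, by 2.72 (SE 0.24) and Stmn1, a microtubule regulator, by 1.61 (SE 0.19). Of 10 natural killer receptors 7 were lower and 1 higher (median -0.79). Klra7 and Klra9, Ly49 receptors for MHC class I, had log2 fold changes of -2.17 (SE 0.41) and -2.10 (SE 0.25), and Klre1 one of -1.31 (SE 0.16). Cd226, an activating receptor that competes with Tigit for CD155, fell by 1.74 (SE 0.30), and Lgals1, which encodes galectin-1, by 1.06 (SE 0.12). The Cd226 call was lost on thinned cells (edgeR adjusted p = 0.0989), and those of Mki67 (edgeR adjusted p = 0.100) and Klra7 (edgeR adjusted p = 0.105) without the library as a block.

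A few genes that were higher in the members are typical of myeloid cells. Il1b, the cytokine interleukin-1 beta, was at 28.0 to 279 CPM in the members of these 8 libraries against 0 to 80.1 in Gzmb CD8 cells, a log2 fold change of 2.27 (SE 0.41). Hp, which encodes haptoglobin, had a log2 fold change of 1.36 (SE 0.28) and Tyrobp, an adaptor of myeloid and natural killer cells, one of 1.09 (SE 0.26). The neutrophil list summed to 20.1 to 5138 CPM (median 587) in the members and 10.8 to 1684 (median 155) in Gzmb CD8 cells over 11 libraries, and the macrophage and monocyte list to 153 to 2629 (median 1441) and 70.1 to 949 (median 306), with no gene of these lists at 0 in every library. With doublet calls left out, Hp was at 0.63 (edgeR adjusted p = 0.252) and Tyrobp at 0.20 (edgeR adjusted p = 0.874), so that neither passed, while Il1b kept its call at 1.56 (edgeR adjusted p = 0.0163). Without the library as a block none of the 3 passed, and Il1b had an edgeR adjusted p of 0.0835. Without p21mTert_2 the Tyrobp call was lost as well (edgeR adjusted p = 0.0798). The part of other cells' transcripts in the Il1b value was not tested.

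**Figure D4:**
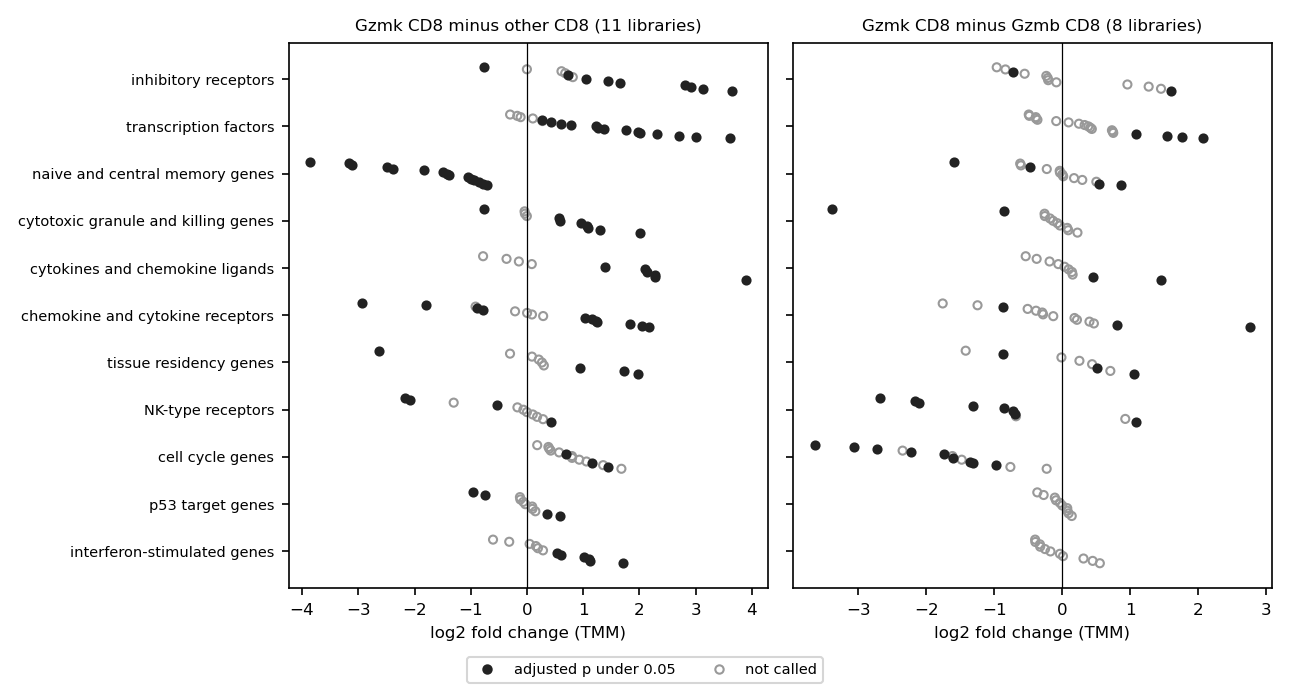
Log2 fold changes of the genes of 11 lists, 1 point per gene, for Gzmk CD8 against other CD8 cells and against Gzmb CD8 cells. All 15 naive and central memory genes lie below 0 against other CD8 cells, whereas against Gzmb CD8 cells the cell cycle list has the lowest median, -1.61.

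Not every member held a UMI of Eomes or Tox. Missing UMIs depend on depth, and the shares given here were not compared with what sampling alone would give. UMIs of both Eomes and Tox were found in 479 of the 1038 cells (46.1%), of Eomes alone in 291 (28.0%), of Tox alone in 107 (10.3%) and of neither in 161 (15.5%). The cells with neither were most frequent in p21mTert_2, with 40 of 113. A Pdcd1 UMI was found in 221 of the 586 members with Tox (37.7%) and in 84 of the 452 without it (18.6%), which describes cells of unequal depth and was not tested. Mki67 was found in 85 members (8.19%), of which 42 were in p21mTertCD_1. Without that library, both Eomes and Tox were found in 350 of 670 members (52.2%) and neither in 94 (14.0%). Doublet calls marked 46 members (4.43%), and these were kept in the values above.

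T cell receptor segments were compared to ask how evenly the members of a library used them. A cell with UMIs of exactly 1 Trbv gene, the variable segment of the beta chain, was counted under that gene, and such cells made up 3.85% to 25% of the members of a library. In p21mTert_2 Trbv16 led with 8 of 27 cells (29.6%), and in p21mTertCD_1 Trbv29 with 17 of 85 (20.0%), while p21mTert_3 had no segment above 3 of 24 (12.5%). The chance that 2 random cells share a segment was compared between members and other CD8 cells. It was higher in the members by 0.0230 over the 3 libraries with at least 20 such cells in each class, higher in 2 of 3 (2-sided exact sign-flip permutation p = 0.5, smallest possible 0.25). This value rested on single libraries, being 0.00029 without p21mTert_2 and 0.0451 without p21mTert_3. With a minimum of 10 cells it was higher by 0.0179 in 5 of 7 libraries (exact permutation p = 0.203, smallest possible 0.0156). A segment shared by 2 cells does not make them 1 clone.

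Within the members, genotypes were compared over 6125 genes and the 10 replicated libraries. No gene was called at an adjusted p under 0.05 in any of the 3 contrasts (0.0% of genes tested, by edgeR and 0 genes by DESeq2). At an unadjusted p under 0.05 edgeR counted 384 genes for p21mTert minus p21Het, 282 for p21mTert minus p21mTertCD and 351 for p21mTertCD minus p21Het. Counts were also simulated for 6125 genes at the depths of the same libraries. Every gene was given the same dispersion (spread between libraries beyond counting error) of 0.05. On these counts the first contrast recovered 88.5% of genes changed 4-fold and 20.5% of those changed 2-fold. The dispersion was set and not estimated from these libraries, so the shares do not say what the real contrasts could have found. The contrasts share libraries, and their values are given side by side only. Without p21mTertCD_2 8 genes were called for p21mTert minus p21mTertCD and 4 for p21mTertCD minus p21Het, where the lone library was taken to vary like the other groups.

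The genes with the smallest unadjusted p, none of which passed the adjustment, are given as values. Without the filter on low counts, 6 of them passed, Actn1 and Ifi208 in the first contrast, Mgp and Ttn in the second, and Gm19585 and Lmna in the third. For p21mTert minus p21Het, Actn1, an actin crosslinker of the naive list, was at 45.8, 34.9 and 40.1 CPM in p21Het and at 13.8, 17.7, 11.3, 8.94 and 10.8 in p21mTert. It was at 62.1 in the wild type and 19.8 and 35.03 in p21mTertCD, and its log2 fold change was -1.65 (SE 0.36, edgeR adjusted p = 0.760). Samsn1, an adaptor protein of lymphocytes, was at 68.7, 58.2 and 54.7 CPM in p21Het and at 102, 93.0, 100.2, 110 and 119 in p21mTert, which gave 0.74 on the log2 scale (SE 0.18, edgeR adjusted p = 0.760). Groups did not overlap in these 2 genes, as in 320 of the 6125 genes (5.22%). Ccl5 was at 14102, 10796 and 13275 CPM in p21Het and at 18687, 17696, 13815.5, 18916 and 18745 in p21mTert, with an overlap at p21mTert_3 and a difference of 0.43 on the log2 scale (SE 0.10, edgeR adjusted p = 0.760). Ifi208, an interferon-inducible PYHIN gene, was at 22.9, 39.6 and 54.7 CPM in p21Het and at 5.40 to 15.7 in p21mTert (log2 fold change -1.94, SE 0.43, edgeR adjusted p = 0.760).

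For p21mTertCD minus p21Het the lowest p was that of Lmna, which encodes lamin A, at 103, 44.2 and 47.4 CPM in p21Het and 17.1 and 15.01 in p21mTertCD (log2 fold change -1.79, SE 0.35, edgeR adjusted p = 0.816). Polg, the mitochondrial DNA polymerase, was at -1.67, Gm19585 at 2.12 and Lbh, a transcription cofactor, at 0.79. For p21mTert minus p21mTertCD, Bach2, a repressor that keeps T cells quiescent, was at 27.6 to 44.2 CPM in p21mTert and 18.4 and 13.7 in p21mTertCD (log2 fold change 1.10, SE 0.29, edgeR adjusted p = 0.885), and Ptpn13, a phosphatase, was at 1.09. Mgp, a matrix protein of fibroblasts, was at -3.82 and Ttn at -2.08, and without p21mTertCD_1 they were at -0.70 and -0.63. Without p21mTertCD_2 they were at -4.60 and -2.60 and passed the test. Mgp stood at 270 CPM in p21mTertCD_1 and at or under 23.3 in the other libraries, where the fibroblast list summed to 362 and to 4.4 to 27.9 CPM, and the part of fibroblast RNA was not tested.

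Cdkn1a, the gene that carries the alleles, was at 26.6 CPM in the wild type members, at 74.5, 51.2 and 21.9 in p21Het, at 38.6, 34.0, 12.6, 29.1 and 10.8 in p21mTert, and at 23.2 and 18.4 in p21mTertCD. The groups overlapped, and p21mTert minus p21Het was -0.997 (SE 0.42, unadjusted p = 0.0327 and adjusted p = 0.778 by edgeR). Tert UMIs in the members numbered 2 in p21mTert_4, 2 in p21mTert_5, 10 in p21mTertCD_1 and 1 in p21mTertCD_2, with none in the 7 other libraries, too few for a test. Other CD8 cells held Tert UMIs under all genotypes, 5 in the wild type, 3, 2 and 3 in p21Het, 1 or 2 in each p21mTert library, and 2 and 0 in p21mTertCD. The marker genes did not pass either. Eomes was at 310 to 395 CPM in p21Het, 291 to 557 in p21mTert and 243 and 342 in p21mTertCD, and p21mTert minus p21Het was 0.30 (SE 0.20, edgeR adjusted p = 0.831). Tox was at 207 to 306, 152 to 351, and 145 and 219 CPM, with 0.04 (SE 0.23, edgeR adjusted p = 0.996), a sign that turned in other settings. No member of the 11 lists was called in any genotype contrast. The medians for p21mTert minus p21Het ran from -1.06 for 9 cell cycle genes to 0.38 for 8 residency genes, against -0.01 over all genes, and the naive list stood at -0.36 over 13 genes and the granule list at 0.31 over 11. Few p21Het members held the cell cycle gene Mki67, 3 of 26, 5 of 65 and 3 of 35, and its CPM was highest in p21Het_1, the first of these.

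**Figure D5:**
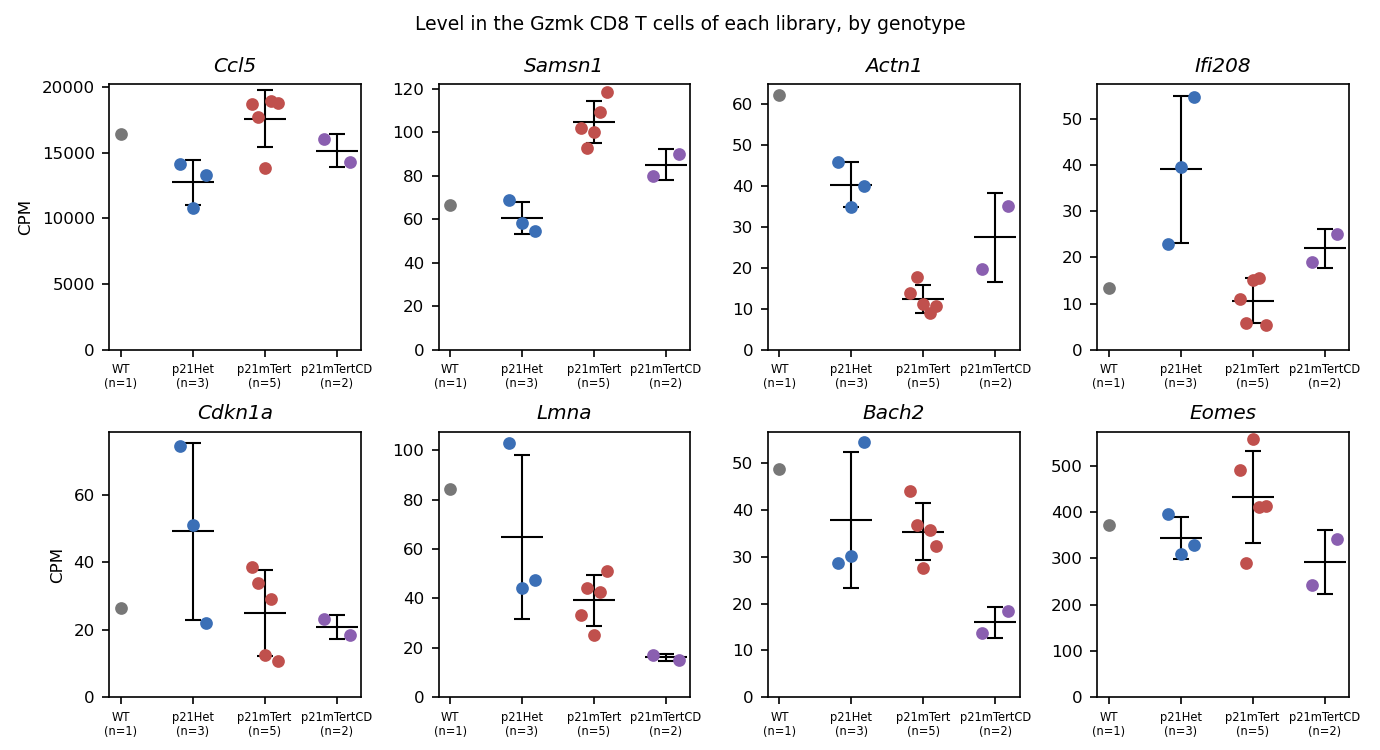
CPM of 8 genes in Gzmk CD8 cells, 1 point per library by genotype group, with the group mean and SD as bars. Actn1 sits at 8.94 to 17.7 CPM in p21mTert and at 34.9 to 45.8 in p21Het, while Eomes and Cdkn1a overlap between the groups, and none of the genes passed the adjusted test.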

How the data were processed

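Whole lung was dissociated, red cells were lysed and libraries were made with a 10x Genomics droplet kit, per the labels' protocols. The deposited matrices hold raw UMI counts per gene and barcode, made by the authors with Cell Ranger on mm10, per the submitters' processing notes. The barcodes were not filtered on the limits given in the labels, which were applied here. Depth was 42038434 to 85988955 UMIs per library.

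The members and the gene lists were chosen with earlier results of these data known. Counts were summed per library and class (at least 20 cells), and tested by quasi-likelihood in edgeR 4.0.16 (R 4.3.3), after its filterByExpr and TMM steps, with Benjamini-Hochberg adjustment over all genes tested and calls under 0.05. Class contrasts had the library as a block and left out the genes of the gate. Genotype contrasts fitted the 3 replicated groups together, and the wild type, with 1 library, entered no genotype test. Replicates are libraries, and where they do not come from separate animals p-values measure only technical spread. Shares were tested with 2-sided exact permutation of libraries, computed in Python 3.11.15 and adjusted over 6 tests. Intervals are exact (Clopper-Pearson, 95%, scipy 1.17.1) and cover counting error only.

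Named genes are the markers, Cdkn1a, Tert, list members, the 10 highest and 10 lowest called genes of a class contrast, and, where nothing was called, the 2 genes of smallest p in each direction. The highest and lowest genes averaged 50 CPM or more in whichever class was higher and had the same direction in every library. Doublets were marked with Scrublet in scanpy 1.11.5 at 0.8% per 1000 barcodes and left out only as an alternative. Simulated data with 200 changed genes were used to check this test. Alternatives were DESeq2 1.42.0, no low-count filter, other gates, thinning to 1000 UMIs, the later deposit alone, a replicate block and leaving out each library. Gene positions are from GENCODE M21, which held 30934 of the 31053 gene identifiers, and promoter windows are from RefSeq. A few genes are not reported here.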

Additional observations from a re-analysis of the deposited data

Results flagged for a closer look

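Among 86 groups of 5 p21mTert library values in Gzmk CD8 cells, 9 held a value far from the other 4 against the spread of the group, and chance alone flags about 1 in 20 groups. In p21mTert_3, Ccl5 was low at 13815.5 CPM (nearest other library 17696), as were Klf2, a factor of quiescent and recirculating T cells, at 355 (651) and Prdm1 at 33.9 (53.1). In p21mTert_5, the cell cycle genes Mki67 and Top2a were high at 97.2 (17.6) and 94.5 (40.2), and Gm19585 was low at 10.8 (31.3). The members of this library also had the highest sum of erythroid markers, 16748 CPM against 26.6 to 6518 in the other libraries, and the part of other cells' RNA was not tested. In p21mTert_1, the only p21mTert library of the first deposit, Satb1 was high at 152 (78.3) and Fam241a at 55.2 (28.0). Its members also had sums of 1019 CPM for the B cell and 1041 for the natural killer markers. The other p21mTert libraries had 116 to 616 and 534 to 675 CPM, and the part of these transcripts was not tested. In p21mTert_4, Casp1 was high at 91.7 (59.4). Its members also had sums of 7506 CPM for alveolar epithelial, 235 for endothelial (Pecam1, Cdh5, Cldn5 and Ramp2) and 416 for gamma delta T cell markers. The other p21mTert libraries had 558 to 731, 13.8 to 112 and 96.6 to 137 CPM, and the part of these transcripts was not tested.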

How the results depend on the processing

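For the p21mTert minus p21Het share of kept cells, the p lost its place under 0.05 with the gate on thinned cells (0.217, exact permutation p = 0.0536), within the later deposit (0.768, p = 0.133) and with the replicate block (1.10, p = 0.5, smallest possible 0.5), and leaving out a library gave 0.606 to 0.865. Without p21mTertCD_1 the share of CD8 cells reversed, to 8.17 for p21mTert minus p21mTertCD (range when leaving out each library -18.2 to 8.17) and to -2.07 for p21mTertCD minus p21Het (-2.07 to 24.3). Same-numbered libraries did not pair (correlations of -0.204 to 0.111). Within the members, the main fit called 0 genes in each of the 3 genotype contrasts. The replicate block, fitted on the later deposit alone, called 49, 51 and 75 in the order of the report. In the first contrast it called Ifi208 (-2.17, edgeR adjusted p = 0.00985). In that fit p21mTert_4, p21mTert_5 and p21mTertCD_1 had no partner, and 1 degree of freedom was left for the spread. The set of libraries also changed along with the block, so these calls are not read as genotype differences. Without a filter on low counts, the counts of called genes were 97, 105 and 84 in the same order. With only the 2 groups compared p21mTertCD minus p21Het had 1. Leaving out each library gave 0 for p21mTert minus p21Het, 0 to 8 for p21mTert minus p21mTertCD and 0 to 4 for p21mTertCD minus p21Het. Against Gzmb CD8 cells, counts were 562 without the filter, 61 without the library as a block, 54 on cells thinned after the gate, 184 in the later deposit and 177 to 423 when leaving out each library. Against other CD8 cells they were 519 on thinned cells, an alternative chosen after the data were seen, and 1639 to 1983 when leaving out each library. Thinning leaves fewer genes to test, and for the rest the cause was not tested.

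Some fold changes turned their sign. Against other CD8 cells, Klrk1 was -0.13 at Gzmk 2 or more, and Cdkn1a was 0.012 by DESeq2 and -0.19 to 0.19 when leaving out each library. Against Gzmb CD8 cells, Nkg7 was 0.0046 without doublets, 0.089 at Gzmk 2 or more and -0.13 to 0.0093 when leaving out each library, and Ccl5 was 0.047 at Gzmk 2 or more and -0.12 to 0.019. For p21mTert minus p21Het, Tox was -0.11 in the later deposit, -0.42 with the replicate block and -0.040 to 0.20 when leaving out each library. For p21mTert minus p21mTertCD, the replicate block gave Ttn 0.21 and Tox -0.45, and Cdkn1a was -0.054 with a term for deposit, -0.059 in the later deposit and -0.12 to 0.35 when leaving out each library. For p21mTertCD minus p21Het, Eomes was 0.28 and Tox 0.031 with the replicate block, and Eomes was -0.42 to 0.042 when leaving out each library. Of 2051 values for named genes, 1946 kept their direction and side of the threshold. The gate on thinned cells left too few libraries for gene tests and Trbv usage, and Trbv usage could not be tested at 2 or more UMIs or at Gzmk 2 or more. A replicate block for shares was possible only for p21mTert minus p21Het.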
